A study of Mus musculus with 16 samples.

Results

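The genes described here are 30 genes that make, sense, move, store and export cholesterol, followed in mouse microglia and astrocytes. They were taken by symbol from a fixed set of names, and all 30 are in both gene count tables, which hold 55414 features for microglia and 56980 for astrocytes. Of the 30 genes, 18 encode enzymes of the synthesis pathway, 5 encode the SREBP transcription factors and the proteins that hold or release them, and 7 encode proteins that move, export or store sterol or sense it. All 30 passed the filter on low counts in both cell types. RNA was sequenced from microglia and from astrocytes of 4 groups, with 2 libraries per group and cell type, 16 libraries in all. AD CKO carried an Alzheimer's disease (AD) model together with a conditional knockout of Rack1 in microglia, AD WT carried the AD model with Rack1 intact, CKO carried the knockout without the AD model, and WT carried neither. RACK1 is a ribosome-bound scaffold and signalling adaptor. The name of the AD model, the Cre driver, the age of the mice and the way the cells were isolated are not given in the labels, and nothing says that replicate libraries were made from separate mice. The p-values below therefore measure only the spread between these libraries, which may be technical.

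Cholesterol is built from acetyl-CoA through mevalonate, farnesyl diphosphate, squalene and lanosterol. When sterol in the endoplasmic reticulum is low, SCAP escorts SREBP proteins to the Golgi, where they are cut to release transcription factors that bind the promoters of nearly all of these enzymes; when sterol is high, INSIG proteins hold the SCAP and SREBP complex back. Excess sterol forms oxysterols, which activate the LXR receptors and through them the exporters ABCA1 and ABCG1 and the ubiquitin ligase MYLIP. In the adult brain, astrocytes are a main source of cholesterol, while microglia take up sterol from debris, esterify it and export it.

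The promoters of 5 synthesis genes are shown because these genes rose in microglia in each of the comparisons CKO vs WT, AD WT vs WT and AD CKO vs AD WT described below and had 1 promoter window each; sequences are from RefSeq, build GRCm38.p6, run from 250 bases before to 50 bases after the annotated start, and are written 5′ to 3′ on the strand of the gene. Capitals mark the sterol regulatory element that SREBP binds (TCACNCCAC) and the NF-Y box (CCAAT), each on either strand. The windows are Hmgcs1 (chr13:119690101-119690400, plus strand), Idi1 (chr13:8885356-8885655, plus strand), Cyp51 (chr5:4104648-4104947, minus strand), Msmo1 (chr8:64733529-64733828, minus strand) and Sc5d (chr9:42264251-42264550, minus strand).
Hmgcs1: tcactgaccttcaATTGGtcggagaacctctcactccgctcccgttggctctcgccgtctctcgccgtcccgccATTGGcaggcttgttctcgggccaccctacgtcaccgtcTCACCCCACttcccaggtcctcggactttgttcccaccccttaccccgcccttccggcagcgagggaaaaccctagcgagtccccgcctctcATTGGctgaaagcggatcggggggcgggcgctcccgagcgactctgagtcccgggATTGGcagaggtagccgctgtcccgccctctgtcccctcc
Idi1: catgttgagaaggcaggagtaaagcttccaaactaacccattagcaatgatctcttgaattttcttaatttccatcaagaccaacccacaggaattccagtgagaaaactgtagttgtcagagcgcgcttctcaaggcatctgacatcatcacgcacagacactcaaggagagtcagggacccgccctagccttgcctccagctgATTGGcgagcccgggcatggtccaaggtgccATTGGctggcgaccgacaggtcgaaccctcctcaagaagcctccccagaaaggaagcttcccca
Cyp51: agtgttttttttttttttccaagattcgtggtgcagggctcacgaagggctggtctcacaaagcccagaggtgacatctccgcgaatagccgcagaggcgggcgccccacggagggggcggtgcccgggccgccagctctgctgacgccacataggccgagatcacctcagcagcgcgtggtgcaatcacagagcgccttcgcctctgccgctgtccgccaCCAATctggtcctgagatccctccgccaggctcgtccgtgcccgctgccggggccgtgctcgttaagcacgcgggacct
Msmo1: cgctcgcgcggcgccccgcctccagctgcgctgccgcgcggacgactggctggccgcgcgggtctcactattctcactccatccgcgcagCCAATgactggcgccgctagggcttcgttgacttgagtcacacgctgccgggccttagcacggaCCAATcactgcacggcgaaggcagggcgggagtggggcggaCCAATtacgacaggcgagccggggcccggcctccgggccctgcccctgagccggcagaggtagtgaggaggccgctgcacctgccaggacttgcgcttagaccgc
Sc5d: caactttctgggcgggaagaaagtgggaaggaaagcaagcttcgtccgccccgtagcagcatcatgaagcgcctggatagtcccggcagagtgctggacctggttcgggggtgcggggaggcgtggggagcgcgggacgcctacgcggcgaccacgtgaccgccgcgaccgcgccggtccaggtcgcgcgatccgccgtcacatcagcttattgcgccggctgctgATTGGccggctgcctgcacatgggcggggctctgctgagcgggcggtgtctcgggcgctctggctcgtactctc
RefSeq windows matched 25 of the 30 genes; Fdps, Fdft1, Sqle, Stard4 and Abcg1 had no match. The sterol regulatory element in this strict spelling was present in 1 of the 25, Hmgcs1, where it began at position -137, against 1.44% of the 27025 genes with a window. The NF-Y box was present in 20 of the 25 (80%), against 41.1% of all genes, and the GC box (GGGCGG, either strand), the site of SP factors that act beside SREBP, in 22 (88%), against 38.2%. Among the 15 synthesis genes matched, 14 held an NF-Y box and 14 a GC box. The E box CACGTG was present in 6 of the 25 (24%), against 8.09% of all genes. The DR4 element of LXR in its exact spelling (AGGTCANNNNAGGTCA) was present in 0 of the 25, against 4 of the 27025 genes (0.0148%). That spelling is too rare for its absence from 25 genes to be informative. DR4 elements with other letters were not searched for. No matches of different motifs overlapped in these windows, and a match of letters is not evidence that a factor binds there.

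Depth was 27741882 to 33933068 counts in the microglia libraries, and 29615853 to 35851170 counts in those of astrocytes. Levels are given as CPM, each library's counts divided by its scaled total, scaled with TMM factors within each cell type. In microglia, Rack1 was at 47.2 and 47.8 CPM in AD CKO and 40.4 and 42.0 CPM in CKO, against 113 and 115 CPM in AD WT and 98.1 and 95.2 CPM in WT. In astrocytes, Rack1 was higher in CKO (102 and 95.7 CPM) than in WT (61.1 and 57.9 CPM) and lower in AD CKO (54.7 and 53.3 CPM) than in AD WT (76.6 and 72.9 CPM). The summed level of 10 microglia markers in the microglia libraries was 29368 to 30162 CPM in AD CKO, 43498 to 43948 in AD WT, 26909 to 27621 in CKO and 48520 to 50497 in WT, and the summed level of 10 astrocyte markers in the astrocyte libraries was 13969 to 14112 CPM in AD CKO, 21800 to 22523 in AD WT, 10159 to 10377 in CKO and 22972 to 23321 in WT. No marker on either of these lists was at 0 in a library of its own cell type. Oligodendrocytes, which also make much cholesterol, left markers in both sets: their 10 markers summed to 2268 to 2319, 3759 to 3761, 8238 to 8631 and 3152 to 3294 CPM in AD CKO, AD WT, CKO and WT microglia libraries, and to 19088 to 19232, 6961 to 7163, 13402 to 13746 and 14595 to 14756 CPM in the astrocyte libraries of the same groups. In bulk libraries of this kind, fewer cells of a type and less RNA per cell cannot be told apart. Differences below were tested with edgeR's quasi-likelihood F-test, two-sided, with Benjamini-Hochberg adjustment over all genes; a gene is said to rise or fall where its adjusted p was under 0.05, and ± gives the standard error of a log2 fold change.

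In WT mice, synthesis genes were high in the astrocyte libraries and the exporters in the microglia libraries. With both cell types scaled together, WT microglia were lower than WT astrocytes in 17 of the 18 synthesis genes, with a median log2 difference of -2.70, against -0.01 over all genes; over all 20589 features tested, 39.5% were higher and 39.4% lower in microglia. Msmo1, the methylsterol monooxygenase, was at 61.5 and 62.8 CPM in WT microglia and at 1674 and 1770 CPM in WT astrocytes (log2 difference -4.79 ± 0.06). Sqle, the squalene epoxidase, was at 9.92 and 9.85 CPM in WT microglia and at 300 and 306 CPM in WT astrocytes (-4.94 ± 0.07). Ebp, a sterol isomerase, was the exception, at 70.1 and 68.5 CPM in WT microglia against 44.7 and 40.0 CPM in WT astrocytes (0.71 ± 0.08). With each cell type scaled alone, oligodendrocyte markers summed to 14595 and 14756 CPM in WT astrocyte libraries and to 3152 and 3294 CPM in WT microglia libraries. The part of oligodendrocytes in the synthesis gene levels of these libraries was not tested. Of the regulators, Srebf1, Srebf2 and Insig1 were lower in microglia, by 2.77, 1.55 and 3.23 on the log2 scale. Insig2, the other SREBP retention gene, did not pass (0.08 ± 0.06), and the difference of Scap was small (0.22 ± 0.07) and not called without WT microglia replicate 2 (0.10, adjusted p = 0.274), WT astrocyte replicate 2 (0.15, adjusted p = 0.134), or AD CKO astrocyte replicate 1 or 2 (0.16 and 0.16, adjusted p = 0.0527 and 0.0536). The sign of Scap turned when a transcript-length trend was removed (-0.07), and its call was lost with the RLE scaling (0.12), which shifts the median of all genes by -0.10.

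The handling genes ran the other way for the exporters. Mylip, whose product marks lipoprotein receptors for degradation, was at 291 and 291 CPM in WT microglia and at 7.42 and 9.16 CPM in WT astrocytes (log2 difference 5.13 ± 0.07). Abca1, which loads cholesterol onto apolipoproteins, was at 383 and 322 CPM in WT microglia and at 83.1 and 84.8 CPM in WT astrocytes (2.07 ± 0.09), and Abcg1, its partner in export, was at 81.7 and 95.4 CPM in WT microglia and at 16.8 and 17.0 CPM in WT astrocytes (2.39 ± 0.09). The 2 LXR genes split: Nr1h2 (LXRβ) was slightly higher in microglia (0.28 ± 0.07, and 0.18 with the RLE scaling), whereas Nr1h3 (LXRα) was at 0.111 and 0.227 CPM in WT microglia and at 9.05 and 9.40 CPM in WT astrocytes (-5.74 ± 0.35). Stard4, a soluble sterol carrier, and Soat1, which esterifies cholesterol for storage, had log2 differences of -1.32 and -0.60; that of Soat1 was -0.96 with the length trend removed. Per kilobase of exon, Mylip was the highest of the 30 genes in WT microglia (90.0 CPM per kb), followed by Abca1 (34.0), Ebp (30.0) and Nr1h2 (26.5). In WT astrocytes the highest were Msmo1 (280 CPM per kb), Srebf1 (99.1), Fdft1, the squalene synthase (93.9), and Idi1, the isopentenyl diphosphate isomerase (89.1), with Abcg1 the lowest (2.31).

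**Figure D1:**
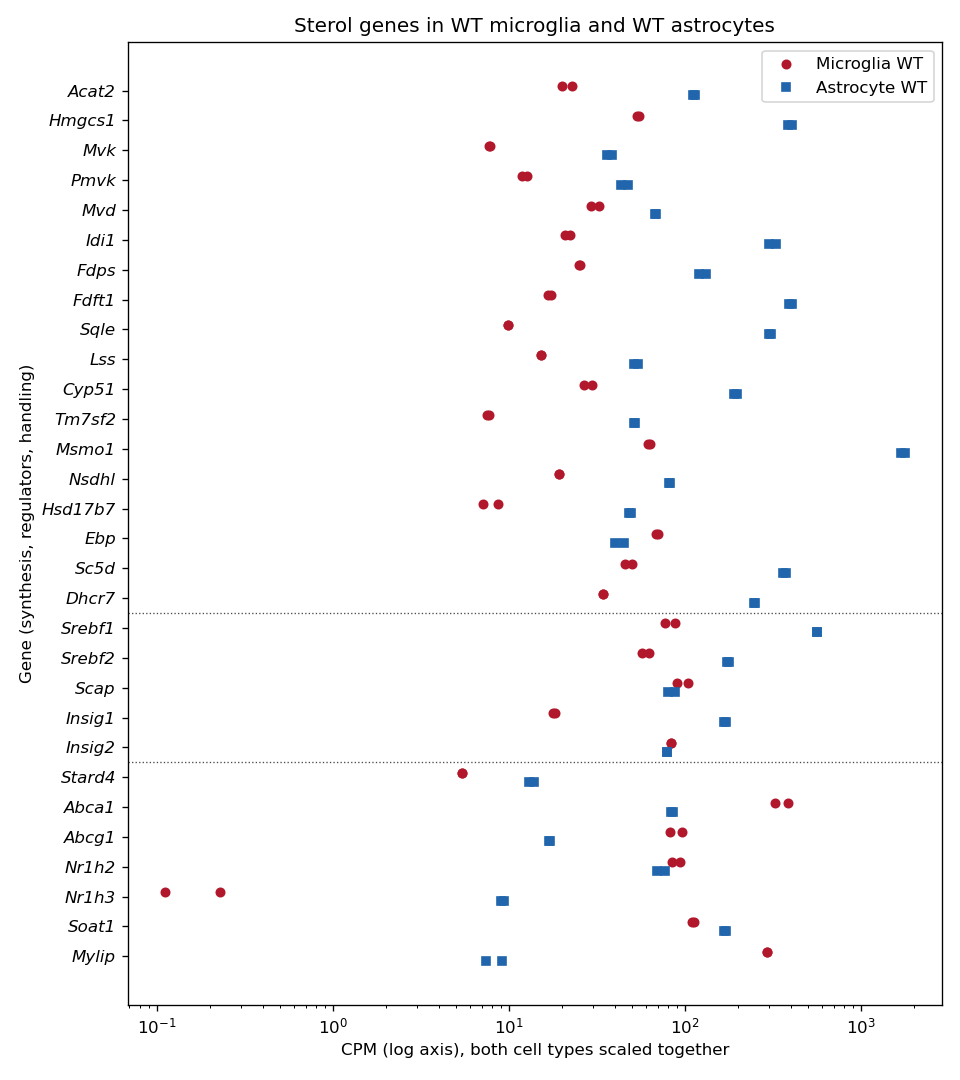
Level of each gene in WT microglia (circles) and WT astrocytes (squares), in CPM on a log axis with both cell types scaled together; each point is 1 library. Nearly all synthesis genes lie lower in microglia, with Ebp as the exception, while Abca1, Abcg1 and Mylip lie higher in microglia.

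In microglia, loss of Rack1 without the AD model went with higher levels of genes along the synthesis pathway. Of the 18 synthesis genes, 10 rose in CKO against WT and 1, Acat2, fell, with a median log2 fold change of 0.34, against 0.04 over all genes. Over all 30 genes 17 rose and 3 fell, while among the 17318 genes tested 17.7% were higher and 15.9% lower. The 3 genes from squalene to lanosterol all rose, as did 4 of the 8 from lanosterol to cholesterol, 2 of the 5 from mevalonate to farnesyl diphosphate, and 1 of the 2 from acetyl-CoA to mevalonate, where the other fell.

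Cyp51, the lanosterol demethylase, was at 48.3 and 53.4 CPM in CKO and at 23.1 and 25.7 CPM in WT microglia (log2 fold change 1.06 ± 0.09, adjusted p = 1.25e-10). Sqle was at 17.3 and 15.5 CPM in CKO and at 8.63 and 8.59 CPM in WT (0.93 ± 0.13, adjusted p = 1.1e-06). Both CKO libraries lay well above both WT libraries for these genes. Dhcr7, the reductase that makes cholesterol in the last step of the main route, was at 51.8 and 53.0 CPM in CKO against 29.8 and 29.7 CPM in WT (0.82 ± 0.08). Idi1 was at 31.1 and 32.3 CPM in CKO against 19.2 and 18.2 CPM in WT (0.76 ± 0.10), and Msmo1 was at 88.4 and 91.7 CPM in CKO against 53.6 and 54.7 CPM in WT (0.73 ± 0.06). The groups did not overlap in any of these. Sc5d, a sterol desaturase (0.66), Lss, the lanosterol synthase (0.49), Fdft1 (0.47), Fdps, the farnesyl diphosphate synthase (0.33), and Hmgcs1, the HMG-CoA synthase (0.31), also rose. The call of Fdps was lost without CKO replicate 2 (0.24, adjusted p = 0.136). Acat2, a thiolase at the head of the pathway, was at 15 and 14.8 CPM in CKO against 17.3 and 20.0 CPM in WT (-0.32 ± 0.12), and its call was lost in DESeq2 (-0.34, adjusted p = 0.051) and on omitting WT replicate 2 or either CKO replicate, 1 or 2 (-0.21, -0.36 and -0.31, adjusted p = 0.298, 0.0707 and 0.126). The remaining 7 synthesis genes did not pass, with log2 fold changes of 0.14 for Mvk, 0.09 for Pmvk and 0.16 for Mvd, which act on mevalonate and its phosphates, and 0.31 for Tm7sf2, 0.27 for Nsdhl, 0.35 for Hsd17b7 and 0.04 for Ebp, which act on sterols. Nsdhl was called higher without CKO replicate 1 (0.40, adjusted p = 0.019) and with a transcript-length trend removed (0.29, adjusted p = 0.0451).

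Of the regulators, both SREBP genes rose in CKO microglia. Srebf2, the main activator of the cholesterol enzymes, was at 73.0 and 73.8 CPM in CKO and at 49.3 and 54.6 CPM in WT (0.50 ± 0.07), and Srebf1, which favours fatty acid enzymes, was at 86.2 and 92.2 CPM in CKO and at 67.0 and 76.0 CPM in WT (0.32 ± 0.07). Scap, Insig1 and Insig2 did not pass, at -0.01, 0.20 and -0.04. Among the handling genes, Stard4 was at 8.37 and 8.16 CPM in CKO and at 4.74 and 4.69 CPM in WT (0.81 ± 0.16). Abca1 was at 500 and 416 CPM in CKO and at 333 and 281 CPM in WT (0.58 ± 0.13), while Abcg1 was at 67.0 and 66.6 CPM in CKO and at 71.1 and 83.1 CPM in WT (-0.21 ± 0.07). The exporters thus took opposite directions, but neither call held in every subset of libraries. That of Abca1 was lost without WT replicate 2, AD CKO replicate 1 or AD CKO replicate 2 (0.46, 0.55 and 0.58, adjusted p = 0.0522, 0.0749 and 0.0692). That of Abcg1 was lost without WT replicate 2 or CKO replicate 2 (-0.09 and -0.20, adjusted p = 0.442 and 0.0875), and its value was -0.32 without WT replicate 1. Mylip was at 208 and 199 CPM in CKO against 253 and 254 CPM in WT (-0.31 ± 0.05), and Soat1 was at 116 and 113 CPM in CKO against 97.6 and 95.5 CPM in WT (0.25 ± 0.05). Nr1h2 rose by 0.24 and was not called without WT replicate 1 or CKO replicate 2 (0.17 and 0.18, adjusted p = 0.0869 and 0.0996). Nr1h3 had the largest fold change (2.82 ± 0.66) on the smallest base, 27 and 36 reads in CKO against 3 and 6 reads in WT.

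Oligodendrocyte markers were also higher in CKO than in WT microglia libraries, by a ratio of 2.62 in their summed level, and astrocyte markers by a ratio of 1.25 (425 to 426 CPM against 338 to 342 CPM); neutrophil markers summed to 598 and 598 CPM in CKO and to 237 and 218 CPM in WT, and 6 markers of border macrophages, another sterol-handling phagocyte, to 415 and 405 CPM in CKO and 138 and 135 CPM in WT. Microglia markers were lower, at a ratio of 0.551. The part of other cell types in the CKO values was not tested.

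**Figure D2:**
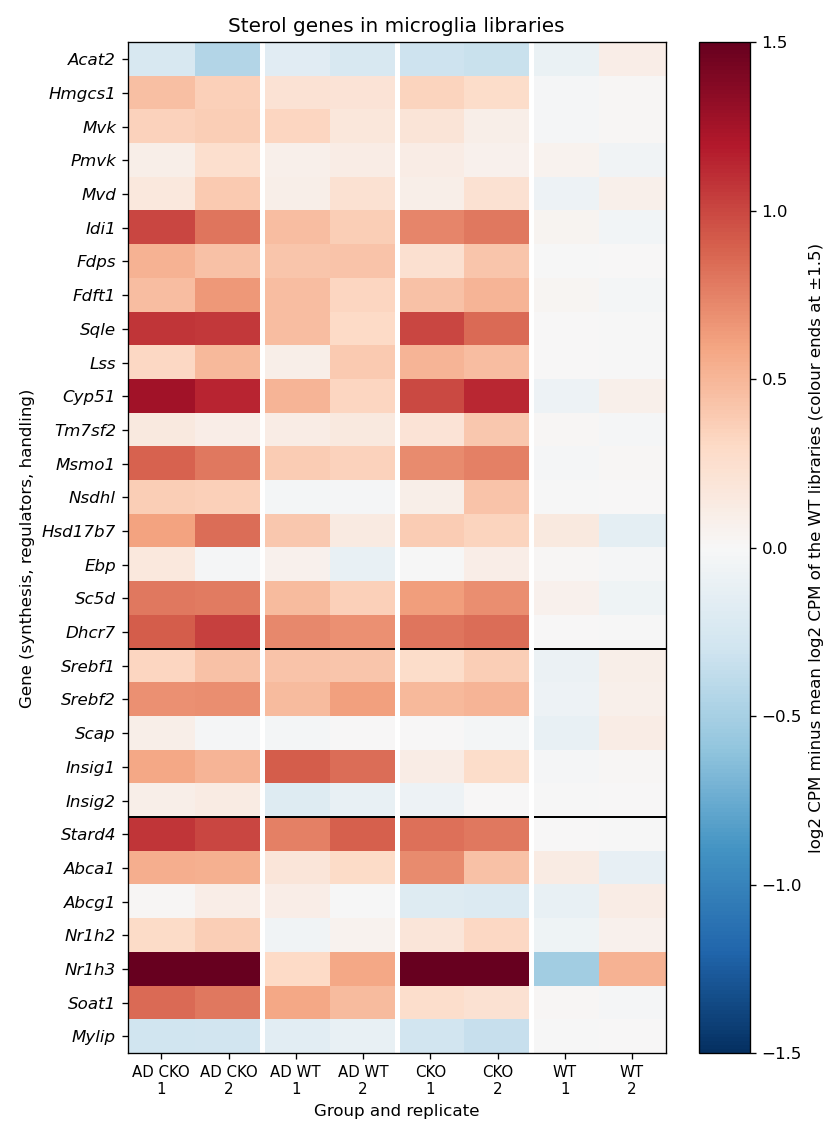
Level of each gene in each microglia library, as log2 CPM minus the mean log2 CPM of the WT libraries; columns are libraries and lines separate synthesis, regulator and handling genes. Most synthesis genes, Srebf2 and Stard4 are higher in AD CKO, AD WT and CKO than in WT, Insig1 is highest in AD WT, and Nr1h3 goes past the end of the colour scale in the AD CKO and CKO libraries.

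The AD model with Rack1 intact also went with higher sterol genes in microglia. In AD WT against WT, 9 of the 18 synthesis genes rose (median 0.26, against -0.02 over all genes) and the other 9 did not pass; of the 30 genes, 14 rose and 1 fell, against 10.7% higher and 8.62% lower among all genes. This comparison and CKO vs WT share the WT libraries. Insig1, which holds SREBP in the endoplasmic reticulum and is itself an SREBP target, was at 29.4 and 28 CPM in AD WT and at 15.4 and 15.9 CPM in WT (0.87 ± 0.10, adjusted p = 1.97e-07). Stard4 was at 7.97 and 8.76 CPM in AD WT and at 4.74 and 4.69 CPM in WT (0.83 ± 0.16). Dhcr7 was at 49.0 and 47.9 CPM in AD WT and at 29.8 and 29.7 CPM in WT (0.71 ± 0.08). In all of these the AD WT libraries lay above both WT libraries. Srebf2 (0.54), Srebf1 (0.42) and Soat1 (0.53) rose as well. Idi1 (0.42), Fdps (0.42), Sc5d (0.41) and Msmo1 (0.36) rose by similar amounts, as did Cyp51 (0.42), whose call was lost without AD WT replicate 1 (0.32, adjusted p = 0.054). The calls of Fdft1 (0.39) and Sqle (0.38) were fragile: that of Fdft1 was lost without WT replicate 2 or AD WT replicate 1 (0.36 and 0.33, adjusted p = 0.0678 and 0.137), and that of Sqle without WT replicate 1 or 2 or AD WT replicate 1 or 2 (0.39, 0.38, 0.30 and 0.47, adjusted p = 0.112, 0.12, 0.29 and 0.0575) or in DESeq2 (0.39, adjusted p = 0.0599). The same held for Hmgcs1 (0.21), which was not called without WT replicate 1 or 2 or AD WT replicate 1 or 2 (0.19, 0.24, 0.21 and 0.22, adjusted p = 0.139, 0.0581, 0.141 and 0.12). Mylip, the only gene that fell (-0.14), was not called without WT replicate 1 or 2, AD WT replicate 1 or 2, or replicate 1 of CKO or AD CKO (-0.14, -0.13, -0.11, -0.16, -0.12 and -0.12, adjusted p = 0.0956, 0.11, 0.29, 0.103, 0.0667 and 0.0589). Abca1, Abcg1 and Nr1h2 did not pass in this comparison, at 0.23, 0.04 and 0.00. The summed marker levels in AD WT were 0.883 of those in WT for microglia, 1.17 for oligodendrocytes and 1.28 for astrocytes. Endothelial markers summed to 704 and 700 CPM in AD WT and to 405 and 406 CPM in WT, and neutrophil markers to 426 and 422 CPM in AD WT and to 237 and 218 CPM in WT; the ratios were 1.52 for mural cells and 2.04 for oligodendrocyte precursors (21.8 to 26.9 CPM in AD WT). The part of these markers' cells in the result was not tested.

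Within the AD model, loss of Rack1 went with higher levels of some synthesis genes in microglia. In AD CKO against AD WT, 9 of the 18 synthesis genes rose (median 0.18, against -0.00 over all genes), 6 of them among the 8 genes from lanosterol to cholesterol; of the 30 genes, 13 rose and 2 fell, against 17% higher and 15% lower among all genes. Cyp51 was at 58.6 and 54.0 CPM in AD CKO and at 34.7 and 30.5 CPM in AD WT (0.79 ± 0.09, adjusted p = 3.46e-08). Sqle was at 18.1 and 18 CPM in AD CKO and at 11.9 and 10.6 CPM in AD WT (0.68 ± 0.12). Idi1 was at 37.4 and 32.6 CPM in AD CKO and at 25.9 and 24.1 CPM in AD WT (0.49 ± 0.09). The AD CKO libraries were above both AD WT libraries in each case, and so were those of Msmo1 (0.48) and Sc5d (0.37). Dhcr7 (0.26) was not called without AD WT replicate 2 or AD CKO replicate 2 (0.25 and 0.20, adjusted p = 0.0582 and 0.0931). Nsdhl (0.39) was not called without AD WT replicate 1 or 2 or AD CKO replicate 1 (0.39, 0.39 and 0.37, adjusted p = 0.0601, 0.0577 and 0.0622), and Hsd17b7 (0.45) was not without AD WT replicate 2 or AD CKO replicate 2 (0.32 and 0.33, adjusted p = 0.281 and 0.242) or in DESeq2 (0.43, adjusted p = 0.0672). The call of Hmgcs1 (0.20) ended on omitting replicate 1 of CKO or AD CKO or either AD WT replicate (0.18, 0.13, 0.20 and 0.19, adjusted p = 0.0518, 0.27, 0.108 and 0.131) or in DESeq2 (0.18, adjusted p = 0.0555). Summed marker levels in AD CKO were 0.681 of those in AD WT for microglia, 0.610 for oligodendrocytes, 0.722 for astrocytes, 0.696 for endothelial cells, 0.638 for neutrophils, 2.10 for oligodendrocyte precursors (46.5 to 55.6 CPM in AD CKO) and 2.62 for border macrophages; their part in the result was not tested.

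Of the 5 regulators, 1 rose and 1 fell in that comparison. Insig1 was lower, at 23.3 and 22.2 CPM in AD CKO against 29.4 and 28 CPM in AD WT (-0.33 ± 0.10), although the call was lost without AD WT replicate 1 or AD CKO replicate 2 (-0.30 and -0.30, adjusted p = 0.101 and 0.085). Insig2 was at 77.0 and 78.9 CPM in AD CKO against 63.4 and 67.1 CPM in AD WT (0.26 ± 0.06) and was not called without AD WT replicate 1 (0.22, adjusted p = 0.0536). Srebf1, Srebf2 and Scap did not pass, at -0.04, 0.15 and 0.05, although Srebf2 was called with the replicate number as a block (0.15, adjusted p = 0.0437). Among the handling genes, Soat1 was at 174 and 168 CPM in AD CKO against 145 and 135 CPM in AD WT (0.29 ± 0.05), and Nr1h2 was at 94.0 and 99.6 CPM in AD CKO against 74.6 and 79.9 CPM in AD WT (0.32 ± 0.06). Nr1h3 had 53 and 26 reads in AD CKO against 5 and 6 in AD WT (2.76 ± 0.64), and its call was lost without AD CKO replicate 1 (2.02, adjusted p = 0.0634). Mylip fell by 0.16 and was not called without AD WT replicate 2 (-0.13, adjusted p = 0.12). Abca1 (0.30), Abcg1 (0.01) and Stard4 (0.21) did not pass, although Abca1 was called higher with the length trend removed (0.37, adjusted p = 0.029) and without CKO replicate 1 or 2 (0.28 and 0.30, adjusted p = 0.0194 and 0.0107).

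Among microglia with the knockout, few genes differed with the AD model. In AD CKO against CKO, 4 of the 30 genes rose, against 7.73% higher and 6.92% lower among all genes. None of the 18 synthesis genes passed in edgeR, where 2 had an unadjusted p under 0.05, and 0 passed in DESeq2. Summed marker levels in AD CKO were 0.272 of those in CKO for oligodendrocytes, 0.445 for neurons and 0.453 for neutrophils. They were 1.09 for microglia and 1.53 for oligodendrocyte precursors. The part of these cells in the result was not tested. Soat1 was at 174 and 168 CPM in AD CKO and at 116 and 113 CPM in CKO (0.58 ± 0.05, adjusted p = 3.27e-09). The other calls were small and each was lost on leaving out a library. Insig1 (0.34) was not called without CKO replicate 1 or AD CKO replicate 1 or 2 (0.29, 0.33 and 0.38, adjusted p = 0.157, 0.0934 and 0.0512), and Abcg1 (0.26) was not without replicate 2 of CKO or AD CKO (0.25 and 0.22, adjusted p = 0.07 and 0.109). Srebf2 (0.19) was not called without CKO replicate 1 or 2 (0.21 and 0.20, adjusted p = 0.109 and 0.148), AD WT replicate 1 or 2 (0.20 and 0.20, adjusted p = 0.0524 and 0.0532), AD CKO replicate 1 or 2 (0.23 and 0.19, adjusted p = 0.0766 and 0.157), or in DESeq2 (0.21, adjusted p = 0.0537).

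The effect of the knockout differed between the AD model and its absence for 6 of the 30 microglial genes: 1 had a larger log2 fold change in the AD model and 5 a smaller one, against 5.53% and 7.19% of all genes. The median of the synthesis genes was -0.25, against 0.01 over all genes. Dhcr7 had the largest difference (-0.55 ± 0.10, adjusted p = 0.000442), with a knockout effect of 0.26 in the AD model and 0.82 without it. Insig1 followed (-0.53 ± 0.14), with effects of -0.33 and 0.20, but was not called on omitting replicate 2 of CKO or of AD CKO, or AD WT replicate 1 (-0.45, -0.49 and -0.49, adjusted p = 0.0755, 0.0534 and 0.0726). The differences of Srebf1 (-0.36) and Srebf2 (-0.35) were not called without WT replicate 1 (-0.27 and -0.27, adjusted p = 0.0581 and 0.0793), nor was that of Srebf1 without AD CKO replicate 1 (-0.30, adjusted p = 0.0596) or that of Srebf2 without AD WT replicate 2 (-0.27, adjusted p = 0.135). That of Insig2 (0.29) was lost on omitting replicate 2 of WT or AD CKO or replicate 1 of CKO or AD WT (0.29, 0.28, 0.27 and 0.25, adjusted p = 0.0504, 0.0733, 0.0982 and 0.146). That of Sc5d (-0.29) was lost without any one library but WT replicate 1 (-0.35 to -0.23, adjusted p = 0.0583 to 0.241). Marker ratios of knockout to intact microglia libraries also differed with the AD model. They were 0.610 in it and 2.62 without it for oligodendrocytes, 0.638 and 2.62 for neutrophils, and 0.813 and 2.19 for neurons. Those of border macrophages (2.62 and 3.01) and microglia (0.681 and 0.551) differed less. The part of these cells in the differences was not tested. Of the 30 genes, 23 had their highest group mean in AD CKO microglia, 15 of them synthesis genes. The lowest mean was in WT for 22, again with 15 synthesis genes. The order of the groups was not counted over all genes, so these counts have no background share beside them. For Cyp51, Sqle and Dhcr7 the order of the means was AD CKO, CKO, AD WT and WT, and the libraries of neighbouring groups did not overlap, although AD CKO and CKO did not differ by the test for any of them.

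In astrocytes the direction was the opposite. In CKO against WT, 16 of the 18 synthesis genes fell and 1, Ebp, rose, with a median log2 fold change of -0.82, against 0.01 over all genes. All 5 regulators fell, and of the 7 handling genes 3 rose and 3 fell. Together 4 of the 30 genes rose and 24 fell, while among the 20116 genes tested 31.6% were higher and 32.4% lower, so that changed genes were common throughout.

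Srebf1 was at 243 and 231 CPM in CKO and at 630 and 632 CPM in WT astrocytes (-1.41 ± 0.04, adjusted p = 1.65e-17). Scap, which carries SREBP to the Golgi, was at 41.8 and 35.4 CPM in CKO and at 98.6 and 90.3 CPM in WT (-1.29 ± 0.07). Insig1 was at 95.0 and 99.0 CPM in CKO and at 188 and 194 CPM in WT (-0.98 ± 0.05). Each of these regulators was lower in both CKO libraries than in either WT library. Srebf2 was at 109 and 112 CPM in CKO and at 200 and 195 CPM in WT (-0.84 ± 0.05). Insig2 fell by 0.13, a call that ended without WT replicate 1 or 2 (-0.14 and -0.12, adjusted p = 0.0982 and 0.146), CKO replicate 1 or 2 (-0.14 and -0.12, adjusted p = 0.0843 and 0.141) or AD CKO replicate 1 or 2 (-0.13 and -0.13, adjusted p = 0.0583 and 0.0565), with the RLE scaling (-0.12, adjusted p = 0.0685) and in DESeq2 (-0.12, adjusted p = 0.113).

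Among the enzymes, Sqle was at 138 and 146 CPM in CKO and at 339 and 346 CPM in WT astrocytes (-1.27 ± 0.05, adjusted p = 3.3e-16). Mvd, the decarboxylase that makes isopentenyl diphosphate, was at 32.7 and 34.0 CPM in CKO and at 77.6 and 76.6 CPM in WT (-1.21 ± 0.06). Dhcr7 was at 122 and 130 CPM in CKO and at 281 and 278 CPM in WT (-1.15 ± 0.05). These falls reached from the early to the last steps of the pathway. Hmgcs1 was at 194 and 218 CPM in CKO and at 432 and 455 CPM in WT (-1.11 ± 0.05). Msmo1, the highest of the 30 genes per kilobase in WT astrocytes, was at 1047 and 1132 CPM in CKO and at 1891 and 2002 CPM in WT (-0.84 ± 0.04). The other enzymes that fell were Lss (-0.96), Idi1 (-0.86), Cyp51 (-0.85), Mvk (-0.83), Hsd17b7 (-0.81), Sc5d (-0.79), Nsdhl (-0.72), Fdft1 (-0.67), Acat2 (-0.62), Tm7sf2 (-0.25) and Fdps (-0.22), of which Fdps was not called without WT replicate 1 (-0.15, adjusted p = 0.0574). Pmvk, a kinase of the mevalonate branch, did not pass (-0.02 ± 0.08), but was called lower with a trend on transcript length removed (-0.62, adjusted p = 3.96e-10). Ebp was at 71.3 and 65.3 CPM in CKO and at 50.5 and 45.2 CPM in WT (0.52 ± 0.08), a difference of 0.15 (adjusted p = 0.0432) under the same setting.

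The handling genes of astrocytes divided. Soat1 was at 88.4 and 92.2 CPM in CKO and at 187 and 193 CPM in WT (-1.08 ± 0.05). Abca1 was at 63.5 and 66.2 CPM in CKO and at 93.9 and 95.9 CPM in WT (-0.55 ± 0.06), while Abcg1 was at 24.1 and 24.7 CPM in CKO and at 19.0 and 19.2 CPM in WT (0.36 ± 0.09). The exporters moved apart here too, and the knockout effect differed between microglia and astrocytes for both, by 1.09 ± 0.12 for Abca1 and by -0.60 ± 0.12 for Abcg1. Mylip was at 14.2 and 14.6 CPM in CKO and at 8.38 and 10.4 CPM in WT (0.62 ± 0.12). Nr1h2 fell by 0.28 (-0.55 with the length trend removed) and Nr1h3 did not pass (0.25 ± 0.11), but was called higher with the RLE scaling (0.26, adjusted p = 0.0437). Stard4 rose by 0.28 and was not called without WT replicate 1 or 2 or CKO replicate 2 (0.23, 0.32 and 0.23, adjusted p = 0.174, 0.0626 and 0.151) or in DESeq2 (0.29, adjusted p = 0.0758).

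Astrocyte markers fell alongside. Their summed level in CKO astrocytes was 0.444 of that in WT, and the summed level of the synthesis genes was 2874 and 3028 CPM in CKO against 5122 and 5277 CPM in WT. The synthesis sum equalled 28.3% and 29.2% of the astrocyte marker sum, which holds no synthesis gene, in CKO and 22.3% and 22.6% of it in WT. Microglia markers in the astrocyte libraries summed to 1464 and 1460 CPM in CKO and to 500 and 492 CPM in WT. Endothelial markers summed to 4371 and 4314 CPM in CKO and to 1652 and 1646 CPM in WT, and mural cell markers to 1851 and 1845 CPM in CKO and to 808 and 779 CPM in WT. The ratios were 2.56 for neutrophils, 4.54 for border macrophages (53.5 to 65.1 CPM in CKO) and 1.66 for neurons. The part of these other cell types in the fall was not tested. Nor was their part in the rises of Mylip and Abcg1, which were higher in WT microglia than in WT astrocytes.

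**Figure D3:**
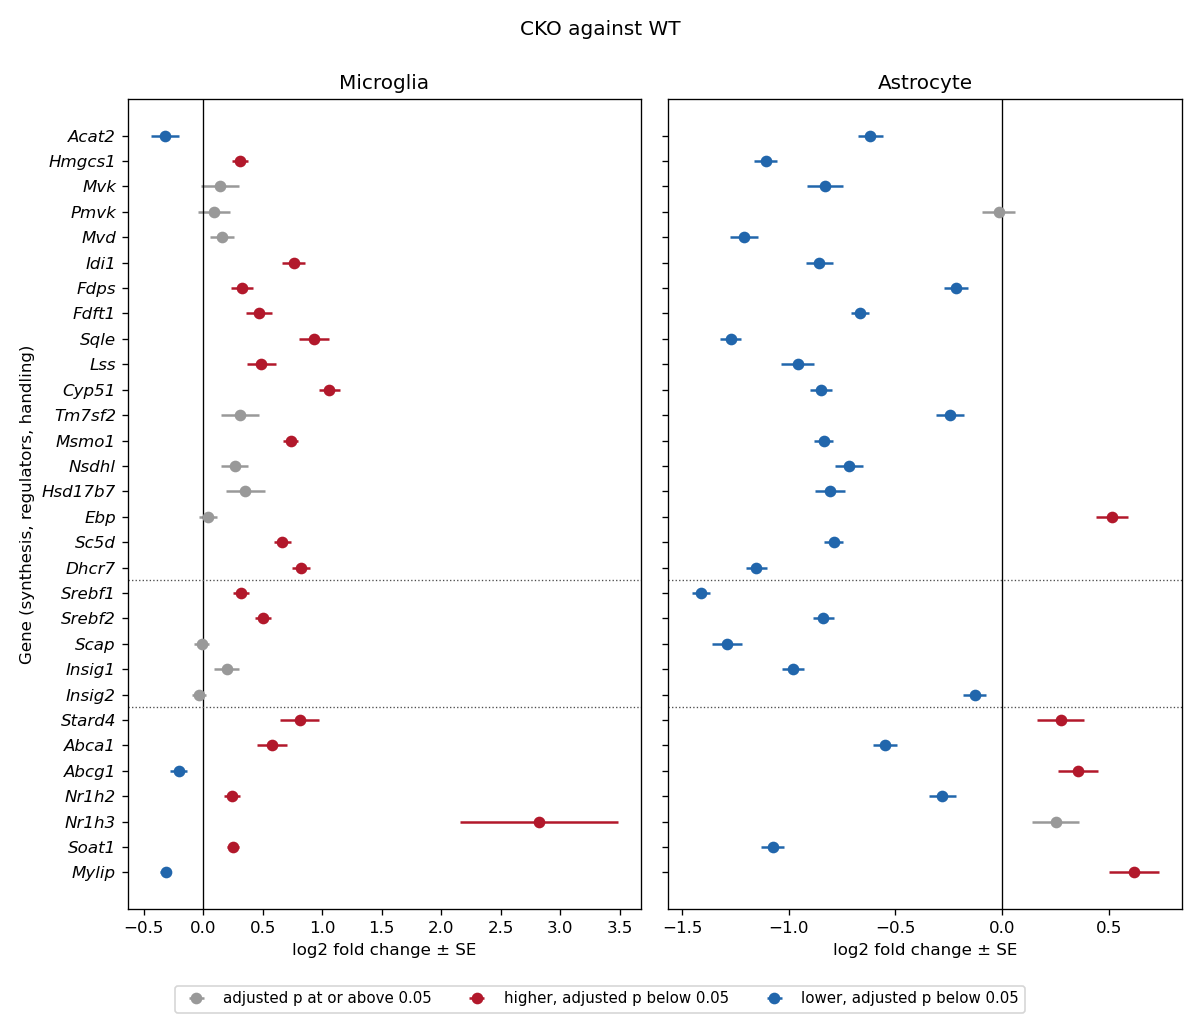
Log2 fold change of CKO against WT for each gene, with its standard error, in microglia (left) and astrocytes (right); colours mark genes past an adjusted p of 0.05 and the horizontal scales differ. Most synthesis genes lie above 0 in microglia and below 0 in astrocytes, and Ebp is the synthesis gene above 0 in astrocytes.

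Part of the pathway was also lower in astrocytes of the AD model with Rack1 intact. In AD WT against WT, 8 of the 18 synthesis genes fell (median -0.11, against 0.03 over all genes) and the other 10 did not pass; of the 30 genes, 1 rose and 13 fell, against 20% higher and 18% lower among all genes. Cyp51 was at 150 and 155 CPM in AD WT and at 215 and 224 CPM in WT (-0.53 ± 0.05, adjusted p = 3.43e-08). Lss was at 41.8 and 44.2 CPM in AD WT and at 60.7 and 57.7 CPM in WT (-0.46 ± 0.08). Srebf2 was at 145 and 146 CPM in AD WT and at 200 and 195 CPM in WT (-0.44 ± 0.05). The AD WT libraries were below both WT libraries for these genes. Sc5d (-0.39), Idi1 (-0.37), Hsd17b7 (-0.32), Sqle (-0.31), Hmgcs1 (-0.30) and Dhcr7 (-0.18) also fell, as did Scap (-0.32). Srebf1 (-0.13) was not called without WT replicate 1 or 2 or AD WT replicate 2 (-0.14, -0.14 and -0.12, adjusted p = 0.0596, 0.0765 and 0.0938) or with the length trend removed (-0.05, adjusted p = 0.373). Stard4 was at 8.5 and 10.6 CPM in AD WT and at 14.8 and 15.7 CPM in WT (-0.68 ± 0.12), the largest fall of the 30 genes here. Abcg1 (-0.29) was not called without WT replicate 1 or 2 or AD WT replicate 1 (-0.31, -0.29 and -0.23, adjusted p = 0.0612, 0.0907 and 0.17) or with the length trend removed (-0.17, adjusted p = 0.16). Nr1h3 was at 15 and 14.3 CPM in AD WT and at 10.2 and 10.6 CPM in WT (0.49 ± 0.11). With the length trend removed, 5 further synthesis genes were called lower, namely Ebp (-0.26), Mvd (-0.24), Nsdhl (-0.21), Pmvk (-0.20) and Msmo1 (-0.10), with adjusted p = 0.00287, 0.00131, 0.00805, 0.015 and 0.0373, and of the 30 genes 2 were then called higher and 18 lower. Soat1 (-0.13) did not pass but was called lower without AD WT replicate 2 (-0.21, adjusted p = 0.0105). The astrocyte marker sum was close between these groups, at a ratio of 0.957, while that of oligodendrocytes was at 0.481 and that of microglia at 2.03; their part in these falls was not tested.

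Loss of Rack1 within the AD model again went with lower synthesis genes in astrocytes. In AD CKO against AD WT, 16 of the 18 fell (median -0.52, against -0.03 over all genes); of the 30 genes, 3 rose and 23 fell, against 25.1% higher and 27% lower among all genes. Msmo1 was at 963 and 1003 CPM in AD CKO and at 1800 and 1861 CPM in AD WT (-0.90 ± 0.04, adjusted p = 2.22e-13). Fdft1 was at 249 and 247 CPM in AD CKO and at 454 and 463 CPM in AD WT (-0.88 ± 0.04). Tm7sf2, a sterol reductase, was at 34.7 and 32.7 CPM in AD CKO and at 60.9 and 59.5 CPM in AD WT (-0.84 ± 0.07). In CKO against WT, by contrast, the largest falls among the enzymes were those of Sqle, Mvd and Dhcr7. Mvd (-0.67), Dhcr7 (-0.66), Nsdhl (-0.65), Acat2 (-0.62), Mvk (-0.59), Idi1 (-0.52), Fdps (-0.52), Pmvk (-0.50, and -0.27 with the length trend removed), Hsd17b7 (-0.46), Sc5d (-0.43) and Sqle (-0.34) also fell. Hmgcs1 (-0.16) was not called without AD WT replicate 2 or AD CKO replicate 1 (-0.10 and -0.11, adjusted p = 0.226 and 0.205), and Cyp51 (-0.14) was not without WT replicate 1 or 2, AD WT replicate 2 or AD CKO replicate 1 or 2 (-0.12, -0.12, -0.10, -0.14 and -0.11, adjusted p = 0.0588, 0.0579, 0.205, 0.106 and 0.199). Both calls were also lost with the RLE scaling (-0.13 and -0.11, adjusted p = 0.0511 and 0.0883) and in DESeq2 (-0.13 and -0.11, adjusted p = 0.0731 and 0.129). Lss and Ebp did not pass (0.17 and -0.11); Lss was called higher with the RLE scaling (0.20, adjusted p = 0.0301), with the replicate number as a block (0.17, adjusted p = 0.0189) and without CKO replicate 1 or 2 (0.18 and 0.17, adjusted p = 0.0244 and 0.0328).

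Of the astrocyte regulators, Insig1 was at 107 and 109 CPM in AD CKO and at 174 and 190 CPM in AD WT (-0.76 ± 0.05), Srebf1 fell by 0.29 and Insig2 by 0.22, and Srebf2 did not pass (0.08 ± 0.05). Scap was called higher by 0.17, but not without AD WT replicate 1 or 2 or AD CKO replicate 1 or 2 (0.17, 0.20, 0.18 and 0.19, adjusted p = 0.107, 0.0564, 0.0942 and 0.0953) or with the length trend removed (0.06, adjusted p = 0.444). Soat1 (-0.48), Nr1h3 (-0.42) and Abca1 (-0.28) fell, and Mylip rose, at 15.7 and 16.8 CPM in AD CKO against 10.3 and 10.7 CPM in AD WT (0.64 ± 0.11). Stard4 (0.41) was not called without AD WT replicate 1 or AD CKO replicate 2 (0.27 and 0.35, adjusted p = 0.107 and 0.0588), nor was Nr1h2 (-0.17) without AD WT replicate 1 or 2 or AD CKO replicate 2 (-0.15, -0.16 and -0.10, adjusted p = 0.106, 0.0821 and 0.344). The Nr1h2 call was also lost with RLE scaling (-0.14, adjusted p = 0.0677), in DESeq2 (-0.14, adjusted p = 0.122) and with the length trend removed (-0.03, adjusted p = 0.637), the last of which also ended the Stard4 call (0.25, adjusted p = 0.0594). Abcg1 did not pass (0.22 ± 0.10), but was called higher with the RLE scaling (0.25, adjusted p = 0.0307), with the replicate number as a block (0.22, adjusted p = 0.0317) and without AD CKO replicate 1, AD WT replicate 2 or CKO replicate 1 (0.34, 0.31 and 0.24, adjusted p = 0.018, 0.0364 and 0.0465). The astrocyte marker sum in AD CKO was 0.634 of that in AD WT, and the synthesis sum equalled 21.3% and 21.3% of that marker sum in AD CKO and 20.9% and 20.8% in AD WT. The oligodendrocyte marker sum was higher in AD CKO, by a ratio of 2.71. Their part in the result was not tested.

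**Figure D4:**
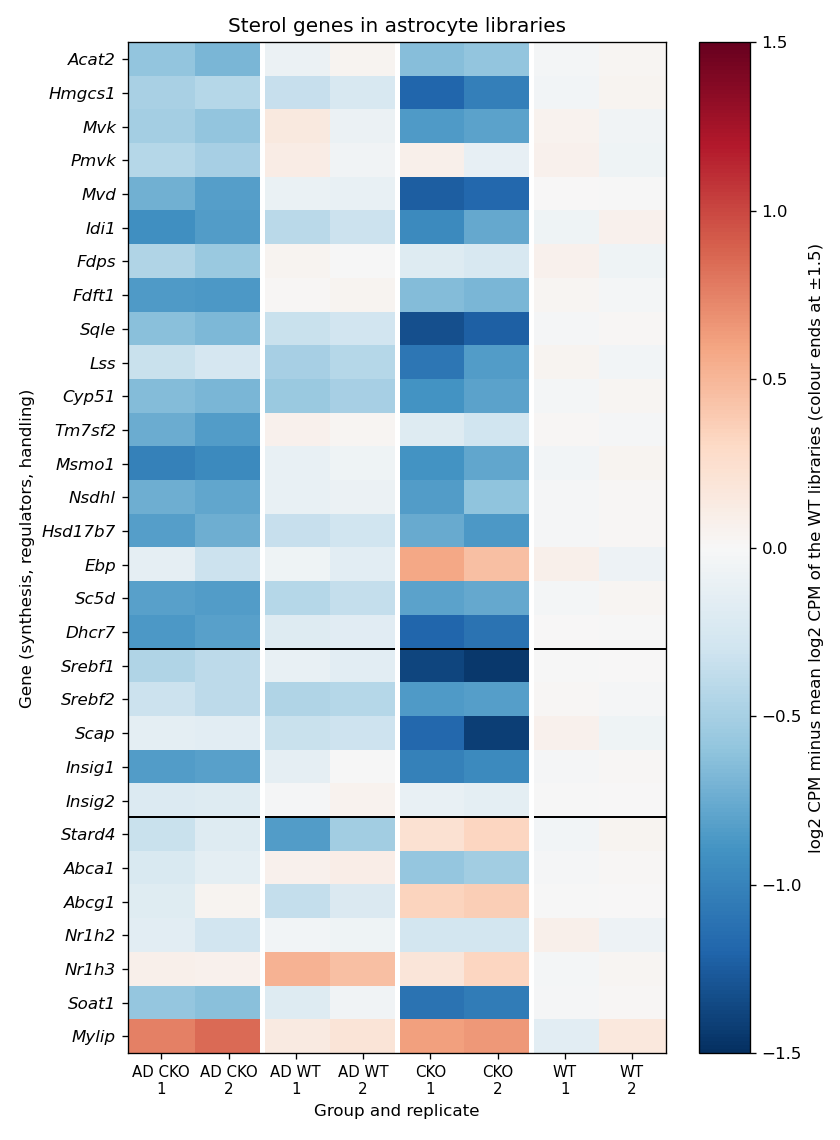
Level of each gene in each astrocyte library, as log2 CPM minus the mean log2 CPM of the WT libraries; columns are libraries and lines separate synthesis, regulator and handling genes. The CKO libraries are lowest for Srebf1, Scap, Sqle and Hmgcs1, the AD CKO libraries are lowest for Msmo1, Fdft1 and Tm7sf2, and Mylip is higher in both groups with the knockout than in WT.

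Among astrocytes of mice with the knockout, the synthesis genes differed with the AD model in both directions, in numbers near those of all genes. In AD CKO against CKO, 7 of the 18 synthesis genes rose and 6 fell (median -0.02, against -0.01 over all genes); of the 30 genes, 13 rose and 8 fell, against 31.4% higher and 28.4% lower among all genes. Scap was at 85.1 and 84.5 CPM in AD CKO and at 41.8 and 35.4 CPM in CKO (1.13 ± 0.07), and Srebf1 was at 461 and 481 CPM in AD CKO and at 243 and 231 CPM in CKO (0.99 ± 0.04). Lss (0.67), Hmgcs1 (0.65) and Sqle (0.62) rose, whereas Ebp (-0.74), Tm7sf2 (-0.55), Pmvk (-0.45) and Fdps (-0.29) fell. Fdft1 fell by 0.19. The call of Msmo1 (-0.15) was lost without CKO replicate 2 or AD CKO replicate 1 (-0.09 and -0.11, adjusted p = 0.139 and 0.112), that of Cyp51 (0.18) without CKO replicate 1 (0.14, adjusted p = 0.0628), and that of Insig1 (0.15) without CKO replicate 1 or AD CKO replicate 2 (0.12 and 0.14, adjusted p = 0.122 and 0.0968). Abca1 (0.36) rose and Abcg1 (-0.42) fell, and Soat1 rose by 0.47 and Stard4 fell by 0.54. Summed marker levels in AD CKO were 1.37 of those in CKO for astrocytes, 1.41 for oligodendrocytes and 1.52 for oligodendrocyte precursors. They were 0.686 for microglia, 0.533 for endothelial cells, 0.456 for border macrophages and 0.208 for neutrophils. The part of these cells in the result was not tested. Of the 8 values that reversed with the length trend removed, 5 belonged to this comparison. Pmvk turned to 0.15 (adjusted p = 0.0422) and Cyp51 was at -0.0018 (adjusted p = 0.977). The others were Acat2 (0.18), Nsdhl (0.19) and Hsd17b7 (-0.22), with adjusted p = 0.00558, 0.011 and 0.00678. Sc5d (-0.29) and Nr1h2 (0.34) kept their sign and were newly called. Calls were kept with changed values for Sqle (0.38), Srebf2 (0.23 against 0.48), Ebp (-0.36), Fdft1 (-0.34) and Abcg1 (-0.65), among others.

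In astrocytes the interaction term passed for many of the 30 genes, and for many of all genes. Of the 30 genes, 15 had a higher log2 fold change in the AD model than without it and 6 a lower one, against 29.5% and 28.3% of all genes. The difference was largest for Scap (1.46 ± 0.10, adjusted p = 2.85e-11), with a knockout effect of 0.17 in the AD model and -1.29 without it. Lss (1.13 ± 0.11) had effects of 0.17 and -0.96, and Srebf1 (1.12 ± 0.06) had effects of -0.29 and -1.41. Hmgcs1 (0.95), Sqle (0.93) and Srebf2 (0.92) followed. For Ebp (-0.63), Tm7sf2 (-0.59) and Pmvk (-0.48) the difference was negative. Marker ratios of AD CKO to AD WT and of CKO to WT were 2.71 and 0.925 for oligodendrocytes and 0.634 and 0.444 for astrocytes. They were 1.15 and 2.63 for endothelial cells and 0.998 and 2.95 for microglia. The part of these cells in the differences was not tested. With the length trend removed, Sqle was at 0.60 and Srebf2 at 0.56, Ebp no longer passed (-0.11, adjusted p = 0.349), and Pmvk turned to 0.35 (adjusted p = 0.00146). The calls of Sc5d (0.36), Hsd17b7 (0.35), Abca1 (0.27) and Nr1h3 (-0.67) were also lost there (0.0018, 0.0059, 0.11 and -0.26, adjusted p = 0.989, 0.97, 0.217 and 0.172). For Msmo1, Nsdhl and Acat2, which fell both with and without the AD model, the differences were -0.06 ± 0.06, 0.06 ± 0.09 and 0.00 ± 0.08 and did not pass, but with the length trend removed Nsdhl (0.40, adjusted p = 0.000295) and Acat2 (0.30, adjusted p = 0.00108) were called higher. So were Mvk (0.49, against 0.24) and Nr1h2 (0.51, against 0.11), and Abcg1 was called lower (-0.48, against -0.13). Mvk was also called without AD WT replicate 1 (0.38, adjusted p = 0.0103) and with the replicate number as a block (0.24, adjusted p = 0.0317).

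**Figure D5:**
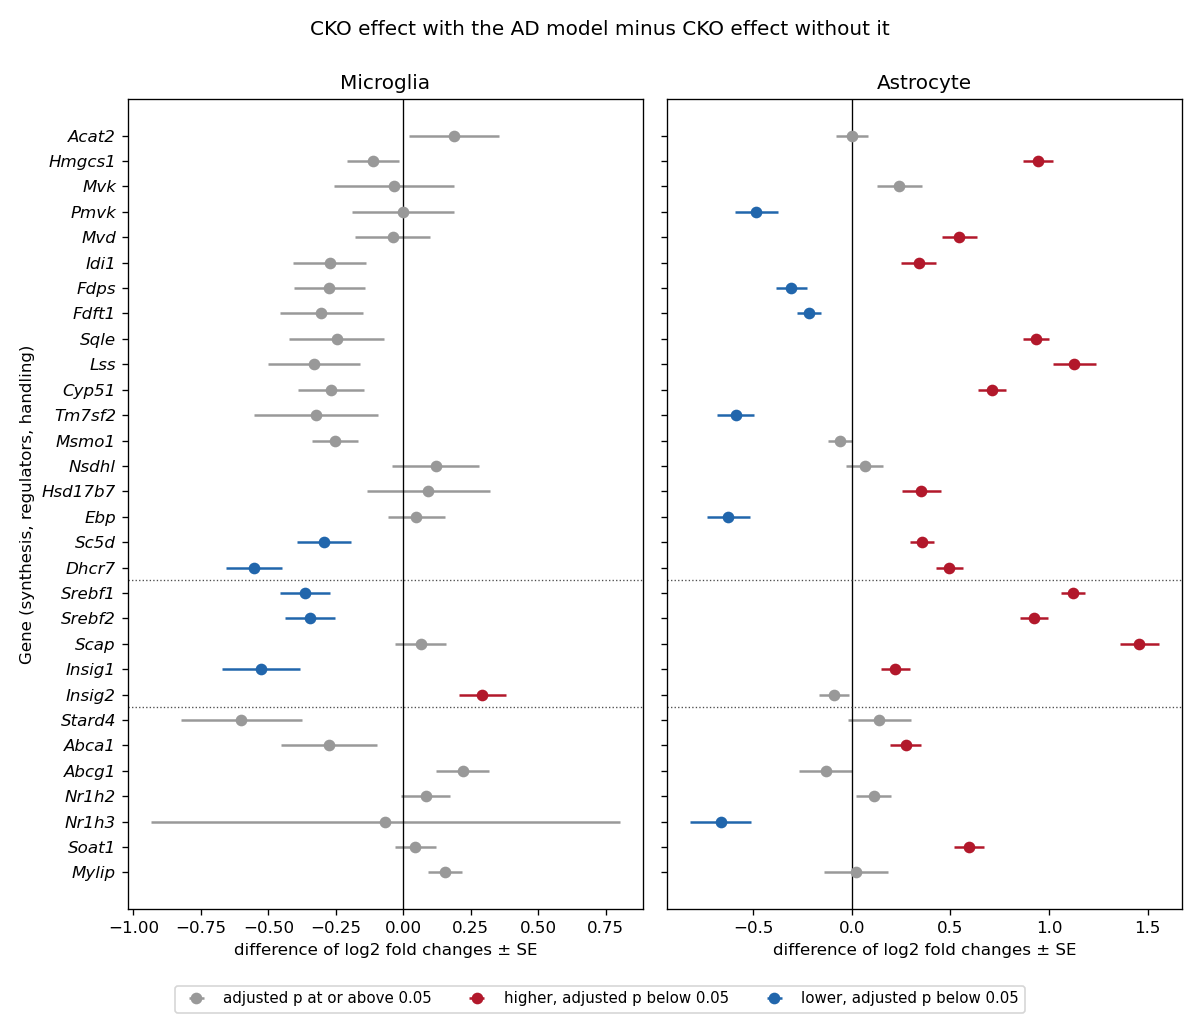
Difference between the knockout effect in the AD model and the knockout effect without it, on the log2 scale with its standard error, in microglia (left) and astrocytes (right); the horizontal scales differ. In microglia 6 genes pass, 5 of them negative, and in astrocytes 15 are positive and 6 negative, with Scap the highest.

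The knockout effect was compared directly between the cell types in a fit over all 16 libraries, a comparison added after the data were seen. Without the AD model, the log2 fold change of CKO against WT was higher in microglia than in astrocytes for 24 of the 30 genes and lower for 3, against 24.7% and 22.2% of all genes; the median over the synthesis genes was 1.23, against 0.02. Within the AD model it was higher for 23 and lower for 1, against 15.7% and 19.3%, with a median of 0.78, against -0.06. In the separate fits, 10 synthesis genes rose in CKO microglia and fell in CKO astrocytes, namely Cyp51, Dhcr7, Fdft1, Fdps, Hmgcs1, Idi1, Lss, Msmo1, Sc5d and Sqle. In the AD model there were 9, namely Cyp51, Dhcr7, Hmgcs1, Hsd17b7, Idi1, Msmo1, Nsdhl, Sc5d and Sqle. Opposite calls in the separate fits were not counted over all genes, so these counts have no background share beside them. Sqle had a difference of 2.17 ± 0.10 without the AD model and 0.99 ± 0.10 within it, Dhcr7 of 1.94 ± 0.08 and 0.88 ± 0.08, and Cyp51 of 1.87 ± 0.10 and 0.89 ± 0.10. Mylip had the opposite sign, at -0.96 ± 0.10 and -0.84 ± 0.10.

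Set against the exporters, the balance of synthesis differed between the cell types. In microglia, the mean log2 CPM of the 18 synthesis genes minus that of Abca1 and Abcg1 was -2.79 and -2.82 in AD CKO, -2.88 and -2.94 in AD WT, -2.89 and -2.70 in CKO and -3.03 and -3.02 in WT. In astrocytes it was 1.43 and 1.25 in AD CKO, 1.84 and 1.76 in AD WT, 1.27 and 1.26 in CKO and 1.89 and 1.86 in WT. The balance was therefore lower in both astrocyte groups with the knockout than in both groups without it, with no overlap. In these libraries astrocyte markers were at ratios of 0.444 in CKO to WT and 0.634 in AD CKO to AD WT. Microglia markers were at 2.95 and 0.998, and both exporters were higher in WT microglia than in WT astrocytes. The part of cell types in the balance was not tested. In microglia the libraries of every other group lay above both WT libraries on this measure. Those of CKO spanned the range of AD CKO and overlapped AD WT. The microglial difference from WT did not hold for all groups in sums: the synthesis sum divided by that of Abca1 and Abcg1 was 1.23 and 1.21 in AD CKO, 1.23 and 1.13 in AD WT, 1.03 and 1.26 in CKO and 1.05 and 1.18 in WT, so that AD WT and CKO overlapped WT. The summed level of the synthesis genes in microglia was 646 and 632 CPM in AD CKO, 528 and 508 CPM in AD WT, 582 and 607 CPM in CKO and 426 and 429 CPM in WT. In astrocytes it was 2979 and 3010 CPM in AD CKO and 4562 and 4696 CPM in AD WT.

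Genes of neighbouring pathways were followed as lists. Of 12 fatty acid synthesis targets of SREBP-1, 6 rose and 2 fell in CKO against WT microglia (median 0.37), against 17.7% higher and 15.9% lower among all genes, with Acaca, an acetyl-CoA carboxylase, at 1.2 ± 0.09 and Scd1, a fatty acid desaturase, at 1.11 ± 0.13, against Fads1 at -0.53 and Acly at -0.47. In AD CKO against AD WT microglia, 2 rose and 6 fell (median -0.27), against 17% higher and 15% lower among all genes, with Fads2 and Fads1, desaturases of polyunsaturated fatty acids, at -0.69 ± 0.12 and -0.56 ± 0.06. In astrocytes all 12 fell in CKO against WT (median -1.11), where 32.4% of all genes were lower, led by Acss2, an acetyl-CoA synthetase, at -1.60 ± 0.05, and the knockout effect was higher in the AD model than without it for all 12 (median difference 1.03), against 29.5% of all genes, led by Acly, the ATP citrate lyase, at 1.5 ± 0.08.

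Of 10 efflux acceptors and other LXR targets, 4 rose and 1 fell in CKO against WT microglia, against 17.7% and 15.9% of all genes, with Apoe, the main brain apolipoprotein, at 2.11 ± 0.04. In AD WT against WT microglia 5 rose and 1 fell, against 10.7% and 8.62% of all genes, with Apoe at 1.46 ± 0.04. In CKO against WT astrocytes 3 rose and 6 fell, against 31.6% and 32.4% of all genes, with Abcg4, another sterol exporter, at -1.55 ± 0.10, and Apoe did not pass (-0.25 ± 0.11). Of 7 genes that form or sense oxysterols, 3 rose and 4 fell in CKO against WT astrocytes, against the same 31.6% and 32.4%. Ch25h, which makes an oxysterol that blocks SREBP processing, had a log2 fold change of 6.37 ± 0.11 there. In CKO against WT microglia it did not pass (-0.26 ± 0.11). The marker ratios of CKO to WT astrocyte libraries were 4.54 for border macrophages, 2.95 for microglia and 2.63 for endothelial cells. They were 0.444 for astrocytes and 0.925 for oligodendrocytes. The part of these cells in the Ch25h value, and any tie of Ch25h to the synthesis genes, was not tested. Within the AD model the Ch25h value was 0.40 ± 0.10 in AD CKO against AD WT astrocytes and 0.57 ± 0.09 in the corresponding microglia.

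Some counts may hold reads of neighbours. In GENCODE M21, exons of Fdps share 1124 bases with Gm43738 and those of Tm7sf2 share 532 bases with Vps51 on the same strand, while exons of Scap, Fdft1, Hmgcs1, Lss, Idi1 and Cyp51 share 985, 774, 557, 381, 323 and 166 bases with genes on the other strand, which a kit that does not mark strand cannot separate.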

How the data were processed

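The authors deposited 1 table of expected counts per cell type, with 1 column per library. Per the labels' protocols, RNA was extracted with TRIzol and made into SMART-Seq v4 libraries, a full-length kit that does not mark strand. The submitters' processing notes name fastp, HISAT2, StringTie and the build mm10, with no versions, order or annotation release. Values were rounded to whole numbers. Each cell type was fitted with edgeR 4.0.16 and limma 3.58.1 in R 4.3.3: filterByExpr, TMM scaling, robust quasi-likelihood F-tests with 4 group means over 8 libraries, and Benjamini-Hochberg adjustment over all genes tested. WT cell types and differences of knockout effects were fitted over 16 libraries. The standard error of a log2 fold change is its size divided by the square root of F. Alternatives were RLE scaling, other filters on low counts, DESeq2 1.42.0, the compared groups alone, the replicate number as a block, an offset for transcript length and leaving out each library. The members, the lists and the comparisons were chosen with earlier results of these data known. Every member is named; full statistics go to the called members with the largest changes in each role, and up to 3 genes are named per wider list. Sequences were read from RefSeq promoter windows. Fits were tested on simulated data.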

Additional observations from a re-analysis of the deposited data

Results flagged for a closer look

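In microglia, the knockout effect differed with the AD model, by the interaction term of the edgeR fit, for 6 of the 30 genes. Among all genes, the term was positive and past the threshold for 5.53% and negative for 7.19%. The difference (AD CKO vs AD WT minus CKO vs WT, log2) was -0.55 for Dhcr7, -0.53 for Insig1, -0.36 for Srebf1, -0.35 for Srebf2, -0.29 for Sc5d and 0.29 for Insig2.

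In astrocytes the same term was past the threshold for 21 genes. Over all genes tested in astrocytes, the term was positive and past the threshold for 29.5% and negative for 28.3%. It was positive for Scap (1.46), Lss (1.13), Srebf1 (1.12), Hmgcs1 (0.95), Sqle (0.93), Srebf2 (0.92), Cyp51 (0.71), Soat1 (0.60), Mvd (0.55), Dhcr7 (0.49), Sc5d (0.36), Hsd17b7 (0.35), Idi1 (0.34), Abca1 (0.27) and Insig1 (0.22). It was negative for Nr1h3 (-0.67), Ebp (-0.63), Tm7sf2 (-0.59), Pmvk (-0.48), Fdps (-0.31) and Fdft1 (-0.22). Cell type markers in the astrocyte libraries also changed unlike with and without the AD model, and their part in these values was not tested. The Insig1 value was not called without AD WT replicate 1 (0.17, adjusted p = 0.0746). With the length trend removed, Sc5d (0.00, adjusted p = 0.989), Hsd17b7 (0.01, adjusted p = 0.97), Abca1 (0.11, adjusted p = 0.217) and Nr1h3 (-0.26, adjusted p = 0.172) were not called.

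By a contrast of the fit over all 16 libraries, the knockout effect differed between microglia and astrocytes for 27 genes without the AD model. Of these, 24 were higher and 3 lower in microglia, against 24.7% and 22.2% of all genes. The differences of largest size were those of Nr1h3 (2.54), Sqle (2.17), Dhcr7 (1.94) and Cyp51 (1.87). In the AD model 23 of the 30 genes were higher and 1 lower, against 15.7% and 19.3% of all genes. There the differences of largest size among the 30 were those of Nr1h3 (3.12), Msmo1 (1.34), Fdft1 (1.02) and Nsdhl (1.00). The Nr1h3 values rest on 3 to 53 reads per microglia library.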

How the results depend on the processing

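In the 13 comparisons, the number of the 30 genes called stayed within 1.5 times the value reported under all alternatives except the removal of single libraries: AD CKO vs CKO microglia gave 1 to 4 (4 reported) and the microglia interaction 3 to 5 (6 reported). With the replicate number as a block, 20, 15, 16, 4 and 7 genes were called in microglia (knockout effect, AD effect, knockout effect in AD, AD effect in the knockout, and interaction, in this order) and 29, 16, 29, 21 and 22 in astrocytes; the numbers did not pair the libraries, whose same-numbered deviations correlated at -0.03 to 0.05. The log2 fold changes of single genes were followed under RLE scaling, DESeq2, the replicate block, the length offset and the removal of single libraries. Of these values, 5176 stayed on their side of the threshold, 161 lost the call, 55 gained it and 8 reversed. A change of sign was counted as a reversal only where the gene was called in either fit, so uncalled values may have changed sign. The reversals came with the transcript length offset: Pmvk at -0.20 in AD WT vs WT astrocytes, Acat2 at 0.18, Pmvk at 0.15, Cyp51 at -0.0018, Nsdhl at 0.19 and Hsd17b7 at -0.22 in AD CKO vs CKO astrocytes, Pmvk at 0.35 in the astrocyte interaction, and Scap at -0.0665 in WT microglia vs WT astrocytes. The cause was not tested. Precision is limited by the 2 libraries per group and, for Nr1h3 in microglia, by 3 to 53 reads per library.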

Other observations

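Lists of neighbouring sterol functions not described above gave the following counts in CKO against WT and in AD CKO against AD WT. Among all genes, 17.7% were higher and 15.9% lower in CKO microglia, 17% and 15% in AD CKO microglia, 31.6% and 32.4% in CKO astrocytes, and 25.1% and 27% in AD CKO astrocytes. Of 11 genes of sterol trafficking and ester storage, 8 rose and 0 fell in CKO microglia, led by Gramd1b, a sterol carrier between plasma membrane and endoplasmic reticulum (0.96 ± 0.12), and Lipa, the lysosomal acid lipase (0.63 ± 0.05). In AD CKO microglia 7 rose and 1 fell, with Gramd1b at 0.66 ± 0.12 and Lipa at 0.61 ± 0.05. In CKO astrocytes 3 rose and 5 fell, with Gramd1a at -1.09 ± 0.06 and Gramd1b at -1.04 ± 0.08, and in AD CKO astrocytes 3 rose and 5 fell, with Gramd1a at 0.26 ± 0.06 and Gramd1b at -0.29 ± 0.08. In astrocytes these counts were near the shares of all genes.

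Of 9 lipoprotein uptake genes, 3 rose and 0 fell in CKO microglia, namely the scavenger receptors Cd36 (1.56 ± 0.10), Msr1 (1.24 ± 0.10) and Stab1 (0.33 ± 0.05). In AD CKO microglia 4 rose and 4 fell, with Msr1 at 1.77 ± 0.10. In astrocytes 5 rose and 4 fell in CKO and 7 rose and 0 fell in AD CKO, with Msr1 at 1.72 ± 0.26 and 1.06 ± 0.23. Border macrophage markers were also higher in these libraries, by ratios of 3.01 in CKO and 2.62 in AD CKO microglia and of 4.54 in CKO and 2.11 in AD CKO astrocytes, and their part in these values was not tested. Of 7 genes of the isoprenoid branch, which leaves the pathway at farnesyl diphosphate, 0 rose and 1 fell in CKO microglia (Ggps1, -0.22 ± 0.07), and 1 rose and 5 fell in CKO astrocytes, led by Dhdds (-0.45 ± 0.07). In AD CKO microglia the log2 fold changes of the 7 genes ran from -0.04 to 0.24 and did not pass, and in AD CKO astrocytes 0 rose and 2 fell.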
